A study of Mus musculus with 12 samples.

Results

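Genes of glycolysis and of the hypoxia response were described across the 3 zones of the embryonic mouse tibia, with the enzymes and transporters of glucose breakdown set beside the oxygen sensors, the hypoxia-inducible factors and their targets. The list held 38 gene symbols, 26 of enzymes, transporters and regulators of glycolysis and 12 of sensors, factors and hypoxia targets. A probe set stood for a gene when the array annotation gave it that symbol alone, and where a gene had several the one with the highest mean log2 signal was taken. In this way 35 of the 38 symbols were found among 18193 genes named on the array, 34 of them by ordinary probe sets and Gapdh by 3 control probe sets only. Bnip3l, Gpi1 and Eno1 had no probe set of their own symbol alone. All 34 passed the filter on low signals, which asked for an average of 50 or more in any zone, and Fbp2 and Eno2 did so through zone I alone.

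Tibiae came from untreated CD1 mice at embryonic day 15.5, with segments of 1 litter pooled, and were cut by hand into zones I, II and III. Zone I held the resting and proliferating chondrocytes, zone II mostly prehypertrophic and hypertrophic chondrocytes, and zone III the most mature hypertrophic chondrocytes together with mineralized bone. Each zone was hybridized to 4 Affymetrix MOE 430 2.0 arrays lettered A to D, 12 arrays in all, and signals are linear intensities scaled to 1 common mean per array, so a zone's value is relative to all of its RNA. Segments hold every cell of that stretch of bone, and in such bulk samples fewer cells of a type and less RNA per cell cannot be told apart.

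Glycolysis splits glucose into pyruvate outside the mitochondria, and in cells short of oxygen the pyruvate is reduced to lactate, which leaves the cell through proton-coupled carriers. The response to low oxygen runs through hypoxia-inducible factors, pairs of an alpha subunit (Hif1a or Epas1, the HIF-2 alpha subunit) with Arnt. When oxygen is present the prolyl hydroxylases encoded by Egln1, Egln2 and Egln3 mark the alpha subunit for capture by the Vhl protein and for breakdown, so that the factor is controlled largely at the protein level, which these arrays do not measure. Fetal growth plate cartilage has no blood vessels, its centre is low in oxygen, and Hif1a is known to be needed there for chondrocyte survival.

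Marker genes set the zones apart. The summed signal of 9 chondrocyte markers was 17989 to 22769 in zone I, 29641 to 32567 in zone II and 10253 to 13318 in zone III. All 9 were higher in zone II than in the mean of both outer zones (median log2 difference 1.41), where 20.1% of all genes were. The list included Ihh and Col10a1, the collagen of hypertrophic cartilage, and 1 marker averaged under 50 in zone I. Between zones II and I, 4 of 9 were higher (44.44%, against 16% of all genes), with a median of 0.39 and a largest difference of 8.79. Between zones III and II, 8 of 9 were lower (88.89%, against 22.7% of all genes). By qRT-PCR the study found less Col2a1 in zone II than in zone I, and Ihh kept at a higher level in zone III. The 8 osteoclast markers summed to 687 to 785, 677 to 1678 and 12732 to 15084 in zones I, II and III. The 8 endothelial markers summed to 666 to 1237, 247 to 521 and 2618 to 2939, and 2 of them averaged under 50 in zone I and 5 in zone II. In zone II against zone I, 8 of 8 were lower, where 25.4% of all genes were. In zone III against zone II, 8 of 8 were higher, where 30.8% of all genes were. The 7 osteoblast markers found, of 9 listed, summed to 4597 to 6132, 7291 to 10468 and 14334 to 16587. The part of these cell types in the results was not tested.

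On the deposited scale most enzymes and transporters averaged highest in zone II. In the contrast of zone II with the mean of zones I and III, 16 of 23 were higher and 3 were lower at a Benjamini-Hochberg adjusted p under 0.05 in limma, against 20.1% of all genes tested that were higher and 30.9% that were lower. This contrast can be called through 1 outer zone alone. Among the 16, Hk2, Pfkl and Pdk1 were not called over zone I (adjusted p = 0.245, 0.0672 and 0.175). Pfkfb4 was not called over zone III (adjusted p = 0.109). The median log2 difference of the enzymes and transporters was 0.49, and that of all genes -0.10. Without Eno2 and Fbp2, which passed the filter through zone I alone, 16 of 21 were higher and 2 lower. The sensors, factors and targets did not share this course: of 11, 1 was higher (Bnip3) and 4 were lower (Epas1, Vhl, Egln3 and Ankrd37), with a median of -0.22.

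The size of the rise in zone II depended on how the arrays were scaled. Centring on 45 ribosomal protein genes moved the median difference of all genes between zone II and the outer zones to -0.46, and 7 enzymes and transporters were then higher in zone II and 5 lower. Quantile normalization gave 12 higher and 4 lower, and centring on each array's median gave 16 and 3. Under quantile normalization the median difference of all genes was -0.0019, and under median centring 0.11. The shares of all genes called belong to the deposited scale and were not counted under the other scalings. Slc2a1, Pfkp, Aldoc, Tpi1, Pkm, Slc16a1 and Slc16a3 among the enzymes and transporters, and Bnip3 among the targets, were higher in zone II than in the mean of the outer zones under every alternative that was run. Aldoa, Pgk1, Ldha and Pfkl did not pass under quantile normalization (adjusted p = 0.326, 0.395, 0.161 and 0.136). Under ribosomal centring neither they nor Pgam1 passed (adjusted p = 0.276, 0.26, 0.137, 0.449 and 0.0505). Hk2, Pfkfb3, Pfkfb4 and Pdk1 also lost their calls under ribosomal centring (adjusted p = 0.617, 0.0712, 0.38 and 0.0966).

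**Figure D1:**
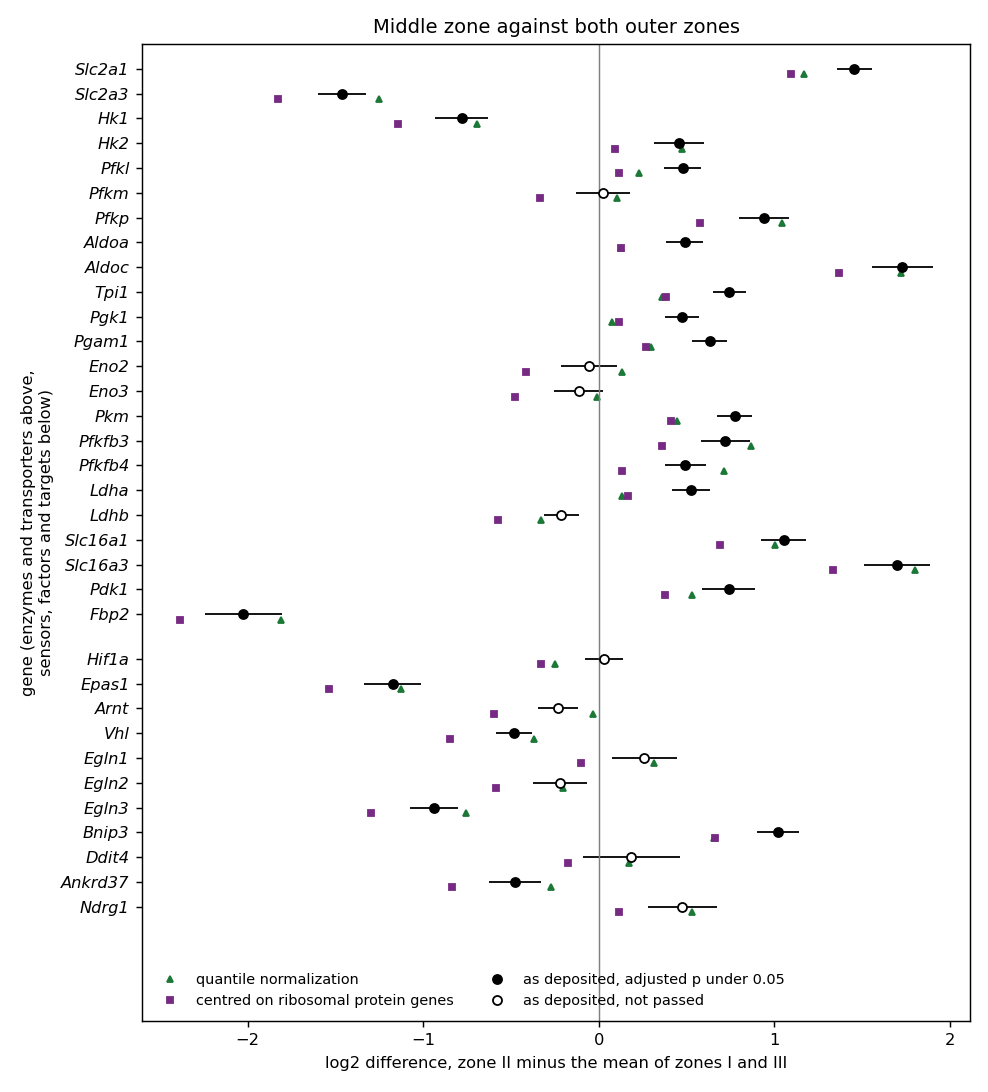
Log2 difference of zone II minus the mean of zones I and III for the 34 genes, from the deposited signals (circles, bars are SE, 12 arrays), after quantile normalization (triangles) and after centring on ribosomal protein genes (squares). Slc2a1, Aldoc and Slc16a3 lie right of 1 under all 3 scalings, Slc2a3 and Fbp2 lie left of -1, and several abundant glycolytic enzymes move close to 0 when the scaling changes.

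The glucose transporters on the list moved in opposite directions. Slc2a1 encodes GLUT1, the widespread glucose transporter. Its signals were 1124, 1378, 1173 and 1043 on arrays A to D of zone I, 3217, 2962, 2904 and 3245 in zone II, then 1070.1, 949, 1114 and 1187 in zone III. Zone II stood above both other zones on every array, and zones I and III overlapped. The log2 difference was 1.39 ± 0.12 (SE, adjusted p = 2.6e-06) for zone II minus zone I, a 2.62-fold rise, and -1.52 ± 0.12 (SE, adjusted p = 5.4e-07) for zone III minus zone II. Both other probe sets of Slc2a1 moved the same way, with log2 differences of 1.54 and 1.77 for zone II minus zone I.

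Slc2a3, which encodes GLUT3, a transporter with high affinity for glucose, ran the opposite course. It read 225, 284, 280.0 and 266 in zone I, 94.4, 76, 67.5 and 109.9 in zone II, then 225, 236, 211 and 179 in zone III, so the zone II arrays were the low ones with no overlap. It fell in zone II by 3.08-fold (log2 difference -1.62 ± 0.16 SE, adjusted p = 9.9e-06) and was higher in zone III than in zone II by 1.31. A second probe set gave -2.08 and 1.81. The endothelial sum also dipped in zone II, and its part in this result was not tested.

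The first steps of glycolysis held a pair of opposed hexokinases, the enzymes that trap glucose by phosphorylation. Hk1 averaged 496 ± 108 in zone I, 294 ± 36.8 in zone II, then 521 ± 57.3 in zone III (SD, n = 4 arrays), lower in zone II than in zone I by a log2 difference of -0.74 ± 0.17 (SE, adjusted p = 0.00539). Hk2, the hypoxia-inducible hexokinase, averaged 505 ± 141, 588 ± 33.9 and 374 ± 25.9 in zones I, II and III and was lower in zone III than in zone II, -0.65 ± 0.16 (SE, adjusted p = 0.00522). Its difference between zones II and I was 0.26 ± 0.16 (SE, adjusted p = 0.245), which passed without array B of zone I (0.43, adjusted p = 0.0222) and under median centring (0.44, adjusted p = 0.0495). Its rise over both outer zones was 0.46, and 0.42 without array A of zone II, where it did not pass (adjusted p = 0.0537). Centring on ribosomal protein genes lowered it to 0.09 (adjusted p = 0.617). The fall of Hk2 in zone III against zone II shrank to -0.23 there and was not called (adjusted p = 0.293).

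Phosphofructokinase, the main control point of the pathway, differed by isoform in which changes were called. Pfkp, the platelet isoform, was 231 ± 59.2, 427 ± 53.7 and 218 ± 19.5 in zones I, II and III, with called log2 differences of 0.91 for zone II minus zone I and -0.97 for zone III minus zone II. Pfkl, the liver isoform, was 1612 ± 229.8, 1992 ± 184 and 1276 ± 101, with a called fall in zone III (-0.64). Its rise in zone II was not called (adjusted p = 0.0672, and 0.0213 without array B of zone I and 0.00618 under median centring). Under ribosomal centring the fall was -0.21 and not called (adjusted p = 0.224). Pfkl exceeded both outer zones by 0.48, a call lost under quantile normalization (0.23, adjusted p = 0.136) and ribosomal centring (0.11, adjusted p = 0.449). Pfkm, the muscle isoform, ranged over 329.9 to 587, 372 to 459.6 and 333 to 400.4 and passed in no comparison on 12 arrays (for zone III minus zone I without array D of zone I, -0.47 and adjusted p = 0.0483). The kinases that make an activator of phosphofructokinase, fructose 2,6-bisphosphate, were both higher in zone II than in zone I: Pfkfb3 by 0.54 ± 0.16 (SE, adjusted p = 0.0179) and Pfkfb4 by 0.71 ± 0.13 (SE, adjusted p = 0.00127). The rise of Pfkfb3 did not pass without array C or D of zone I (adjusted p = 0.0547 and 0.0523) or under ribosomal centring (0.24, adjusted p = 0.303). It did not pass with no filter on low signals either (adjusted p = 0.0572). The median of its probe sets gave 0.19 (adjusted p = 0.414), and its second probe set, which averaged under 50 in every zone, gave -0.16.

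Both aldolases, which split the 6-carbon sugar, peaked in zone II. Aldoc read 289.8, 626, 401 and 334 in zone I, 957, 1016, 842 and 1083 in zone II, then 202, 205, 222 and 243 in zone III. The 3 zones did not overlap, array B being the highest of zone I. Its log2 difference was 1.30 ± 0.20 (SE, adjusted p = 3.3e-04) for zone II minus zone I and -2.16 ± 0.20 (SE, adjusted p = 2.6e-06) for zone III minus zone II, a 4.46-fold fall. Aldoa, the abundant form, averaged 2508 ± 309, 3623 ± 155 and 2682 ± 306 in zones I, II and III, with differences of 0.54 for zone II minus zone I and -0.44 for zone III minus zone II, both called. Neither was called under quantile normalization (0.24 and -0.01) or ribosomal centring (0.24 and -0.01).

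**Figure D2:**
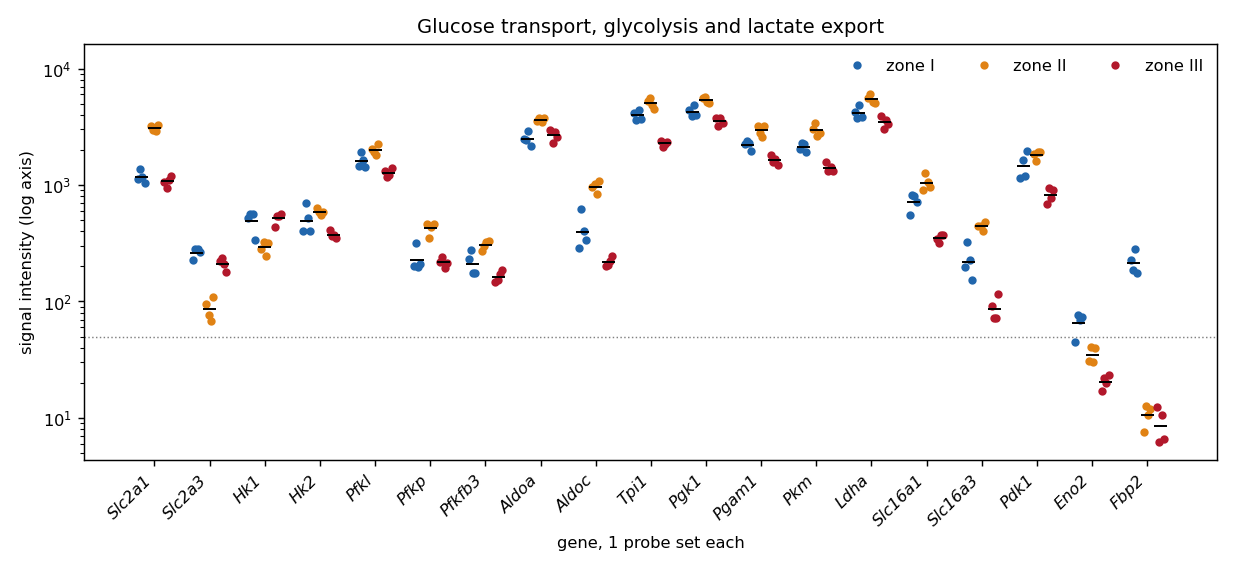
Signal intensity on a log axis for 19 enzymes, transporters and regulators in zones I, II and III, with 1 point per array and a bar at the geometric mean of 4 arrays; the dotted line is the filter of 50. Aldoc, Slc16a1 and Slc16a3 separate the 3 zones with zone II on top, Slc2a3 and Hk1 dip in zone II, and Fbp2 lies above the line in zone I alone.

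Below the aldolase step, on the deposited scale, Tpi1, Pgam1 and Pkm were highest in zone II and lower in zone III than in zone I. Tpi1, which interconverts both 3-carbon sugars, read 4169, 3647, 4420.1 and 3704 in zone I, 5231, 5559.7, 4859.6 and 4529 in zone II, then 2409, 2119, 2243 and 2337 in zone III. No array of 1 zone reached into another, and the log2 difference was -1.15 ± 0.11 (SE, adjusted p = 3.1e-06) for zone III minus zone II and 0.34 ± 0.11 (SE, adjusted p = 0.0269) for zone II minus zone I. Pkm, the pyruvate kinase of most tissues, read 2055, 2291, 2232 and 1928 in zone I, 3004, 3378, 2637 and 2797 in zone II, then 1569, 1308, 1414 and 1314 in zone III. Again the 3 zones did not overlap, and zone III was 2.1-fold below zone II (-1.07 ± 0.11 SE, adjusted p = 8.3e-06). The rises over zone I shrank to 0.02 for Tpi1 and 0.18 for Pkm under quantile normalization and to 0.05 and 0.18 under ribosomal centring, none of them called.

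Pgk1 and Pgam1, which carry the sugar phosphate on towards pyruvate, averaged 5384 ± 304 and 2950.2 ± 312 in zone II, against 4275 ± 469.6 and 2219 ± 191 in zone I. They rose by 0.34 and 0.41 in zone II and fell by 0.61 and 0.85 in zone III against zone II, on the log2 scale. These genes and Ldha were among the brightest probe sets, on arrays whose highest signal lay between 4958 and 8019. Under quantile normalization the rises of Pgk1 and Pgam1 were 0.02 and 0.12, under ribosomal centring 0.04 and 0.11, none called, and the fall of Pgk1 was not called either (-0.13 and -0.18). The rises of Tpi1 and Pgk1 over zone I no longer passed when array B or D of zone I or array A or B of zone II was left out (adjusted p from 0.0596 to 0.0709 for Tpi1 and from 0.0657 to 0.0743 for Pgk1).

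The tissue-restricted enolases followed another course. Eno2, the neuronal enolase, read 45.1, 76.9, 70 and 73.8 in zone I, 30.9, 40.6, 30.3 and 39.7 in zone II, then 16.9, 22, 19.9 and 23.4 in zone III, so that all values of zones II and III lay under 50. Since Eno2 passed the filter through zone I alone, its log2 differences of -0.89 for zone II minus zone I and -0.78 for zone III minus zone II are a description. Eno3, the muscle enolase, averaged 433 ± 78.1, 344 ± 40.6 and 324 ± 46.5 and passed in no comparison of the main fit. For zone III minus zone I (-0.41, adjusted p = 0.0608) it passed on the same signals with a filter of 100 (adjusted p = 0.047). It also passed there with a robust fit of the spread against mean signal (adjusted p = 0.0437). Array C of zone I was its low one, and without it zones II and III were below zone I (log2 differences -0.46 and -0.55, adjusted p = 0.0262 and 0.00983); zone III was also below zone I under quantile normalization and zone II under ribosomal centring (adjusted p = 0.0331 and 0.0195). The 12 skeletal muscle markers summed to 488 to 1942 in zone I, 409 to 766 in zone II and 243 to 514 in zone III, where 12 of 12 had means under 50.

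Fbp2, the muscle fructose bisphosphatase, which runs the phosphofructokinase step backwards, was above a signal of 50 in zone I alone. It read 228, 185, 282 and 174 in zone I, 7.62, 12.6, 10.6 and 12 in zone II, then 12.5, 6.16, 10.6 and 6.59 in zone III. The zone I values were separated from all others by more than 10-fold, and zones II and III overlapped at signals near the bottom of the scale. Its log2 differences of -4.34 for zone II minus zone I and -4.64 for zone III minus zone I became -3.11 and -3.21 with 16 added to every signal. The sum of the muscle markers in zone II, 409 to 766, overlapped that in zone I, 488 to 1942, and their part in this difference was not tested.

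At the end of the pathway, genes that make and export lactate were high in zone II. Ldha, the lactate dehydrogenase subunit that favours lactate formation, averaged 4166 ± 513, 5465 ± 448 and 3478 ± 377 in zones I, II and III, with log2 differences of 0.40 for zone II minus zone I and -0.66 for zone III minus zone II, both called. Neither was called under quantile normalization (0.09 and -0.18) or ribosomal centring (0.10 and -0.23). The rise no longer passed without array B or D of zone I or array B of zone II (adjusted p = 0.0609, 0.06 and 0.0639). Ldhb, the heart subunit, averaged 1256 ± 128, 1003 ± 112 and 1072 ± 49.5 and was lower in zone II than in zone I by -0.33 ± 0.11 (SE, adjusted p = 0.0407), a call that was lost without array B or C of zone I, A or D of zone II or any array of zone III (adjusted p from 0.0537 to 0.113).

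Slc16a3 encodes MCT4, the lactate exporter of glycolytic cells. It read 199, 327, 227 and 153 in zone I, 448, 441, 406 and 483 in zone II, then 90.7, 71.5, 72.4 and 117 in zone III, with no overlap between zones. It rose 2.03-fold in zone II, 1.02 ± 0.22 (SE, adjusted p = 0.00275), and fell 5.16-fold in zone III, -2.37 ± 0.22 (SE, adjusted p = 2.3e-06), the largest fall of the 34 genes between these zones. Slc16a1 encodes MCT1, a carrier of lactate and pyruvate, and read 551, 813, 797 and 708 in zone I, 913, 1258, 1057 and 953 in zone II, then 345, 319, 375 and 373 in zone III. Its zones were separate too, with log2 differences of 0.55 ± 0.15 (SE, adjusted p = 0.0114) for zone II minus zone I and -1.56 ± 0.15 (SE, adjusted p = 3.0e-06) for zone III minus zone II. Under ribosomal centring its rise was 0.25 and not called (adjusted p = 0.218), and the median of its probe sets gave 0.72 (adjusted p = 0.121).

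Pdk1, the kinase that keeps pyruvate out of the mitochondrial cycle, read 1154, 1651, 1206 and 1965 in zone I, 1846, 1615, 1932 and 1917 in zone II, then 682, 944, 766 and 911 in zone III. Zones I and II overlapped, with a difference of 0.32 ± 0.18 (SE, adjusted p = 0.175) that passed without array D of zone I (adjusted p = 0.0446), and all zone III arrays lay below them, -1.16 ± 0.18 (SE, adjusted p = 1.6e-04) against zone II.

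Gapdh, which oxidizes glyceraldehyde 3-phosphate, could be read only through the control probe sets for the 3' end, the middle and the 5' end of its transcript. The 3' probe set gave 3697, 3215, 4316 and 3312 in zone I, 4561, 5039, 4418 and 4529.7 in zone II, then 3384, 2742, 3141 and 2951 in zone III. In a fit that kept control probe sets, chosen after the data were seen, zone II exceeded zone I by log2 differences of 0.36 at the 3' end, 0.41 in the middle and 0.49 at the 5' end (adjusted p = 0.0322, 0.00302 and 0.0021). The differences for zone III minus zone II were -0.60, -0.92 and -1.24 at the same 3 places, and those for zone III minus zone I were -0.25, -0.50 and -0.75, the first not called (adjusted p = 0.124). The ratio of the 3' to the 5' signal was 1.98 to 2.28 on zone III arrays and 1.25 to 1.76 in the other zones, and for actin the same ratio ran the other way, 1.70 to 2.02 in zone III and 2.09 to 3.23 in the others; the part of transcript ends in these differences was not tested. Under quantile normalization the rises of Gapdh in zone II against zone I were 0.05, 0.09 and 0.18, none of them called. The 3' difference for zone III minus zone II was then -0.14 (adjusted p = 0.194), and -0.18 under ribosomal centring (adjusted p = 0.161). Those in the middle and at the 5' end stayed called under both scalings.

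Promoter windows are shown for 4 genes that peaked in zone II and for Egln3, a known HIF target that dipped there, because the hypoxia-inducible factors bind a short core, ACGTG or GCGTG, in either strand. The windows are the 250 bases before each gene's RefSeq start in mouse build GRCm38.p6, in the direction of the gene, with the cores of either strand in capitals, overlapping ones joined.
Slc2a1, chr4:119108495-119108744, plus strand: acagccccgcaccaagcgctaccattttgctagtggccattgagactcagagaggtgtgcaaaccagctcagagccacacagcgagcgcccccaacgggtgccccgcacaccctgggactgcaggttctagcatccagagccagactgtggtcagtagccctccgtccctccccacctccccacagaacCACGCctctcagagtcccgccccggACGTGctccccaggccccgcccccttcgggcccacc
Slc16a1, chr3:104638414-104638663, plus strand: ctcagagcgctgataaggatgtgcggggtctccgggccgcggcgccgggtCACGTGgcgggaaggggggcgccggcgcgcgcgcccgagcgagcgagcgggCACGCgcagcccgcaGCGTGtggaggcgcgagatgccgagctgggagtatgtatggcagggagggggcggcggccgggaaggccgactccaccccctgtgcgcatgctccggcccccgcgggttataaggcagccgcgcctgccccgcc
Slc16a3, chr11:120948817-120949066, plus strand: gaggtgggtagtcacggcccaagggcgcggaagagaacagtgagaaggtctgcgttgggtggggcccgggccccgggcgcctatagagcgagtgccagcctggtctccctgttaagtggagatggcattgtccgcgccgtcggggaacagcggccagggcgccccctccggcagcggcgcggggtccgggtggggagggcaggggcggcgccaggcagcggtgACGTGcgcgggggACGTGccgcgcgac
Bnip3, chr7:138909507-138909756, minus strand: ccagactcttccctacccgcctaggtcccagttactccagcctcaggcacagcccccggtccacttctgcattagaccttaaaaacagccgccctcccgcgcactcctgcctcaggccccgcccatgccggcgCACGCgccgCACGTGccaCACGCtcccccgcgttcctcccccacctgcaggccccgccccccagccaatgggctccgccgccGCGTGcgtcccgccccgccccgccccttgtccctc
Egln3, chr12:54203875-54204124, minus strand: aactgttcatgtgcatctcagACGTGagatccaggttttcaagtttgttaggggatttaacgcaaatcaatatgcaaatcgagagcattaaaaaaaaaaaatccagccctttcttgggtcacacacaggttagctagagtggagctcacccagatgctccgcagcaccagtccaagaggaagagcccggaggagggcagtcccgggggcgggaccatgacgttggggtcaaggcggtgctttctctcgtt

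Slc2a1 carried cores that began 61 and 36 bases before the start, and Slc16a3 had 2 cores 27 and 14 bases before it. Bnip3 held 5, beginning 117 to 35 bases before the start, Slc16a1 held 4, beginning 200 to 134 bases before it, and Egln3 held 1 at 229. Over windows of 300 bases, from 250 before to 50 after the start, a core was found in 30 of 34 listed genes with a window (88.24%), in 66.98% of the genes tested on the array and in 46.73% of all 27025 genes of the table. The share was 16 of 17 among genes higher in zone II than in the outer zones, 4 of 5 among those lower and 8 of 9 among those that did not pass, which was not tested for a difference. A match of 5 letters is a description of the sequence and not of a bound site.

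Transcripts of the factors themselves did not follow the enzymes. Hif1a read 2169, 2798, 2276 and 2768 in zone I, 2146, 1714, 2043 and 1799 in zone II, then 1435, 1601, 1284 and 1378 in zone III. On the deposited scale each zone lay below the one before it with no overlap, by -0.37 ± 0.13 (SE, adjusted p = 0.0356) for zone II minus zone I and -0.43 ± 0.13 (SE, adjusted p = 0.0132) for zone III minus zone II. Other probe sets of Hif1a placed more of the fall between zones I and II: a second averaged 942, 503 and 411 in zones I, II and III, with differences of -0.91 and -0.29, and the dimmest that passed the filter gave -1.15 and 0.50. The fall from end to end held under every alternative, -0.81 ± 0.13 (SE, adjusted p = 2.8e-04) for zone III minus zone I. The fall in zone II against zone I was lost without array B or D of either zone (adjusted p from 0.0796 to 0.0915), when array letters or fluidics runs were blocked (adjusted p = 0.0594 and 0.0652) and under median centring (-0.19, adjusted p = 0.272). The step between zones III and II was -0.13 under quantile normalization (adjusted p = 0.47) and -0.0048 under ribosomal centring (adjusted p = 0.981).

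Epas1 rose late. Its signals were 424, 280.4, 264 and 269 in zone I, 366, 224, 258 and 306 in zone II, then 1367, 1246, 1574 and 1232 in zone III. All 4 zone III arrays lay far above the rest, 4.76-fold over zone II (2.25 ± 0.19 SE, adjusted p = 1.0e-06), and zones I and II overlapped. Epas1 is strongly expressed in endothelial cells, and the 8 endothelial markers rose with a median log2 difference of 3.06 between the same zones. Of these markers 5 averaged under 50 in zone II, and their part in the rise of Epas1 was not tested. Arnt, the shared partner, read 221, 229, 164 and 215 in zone I, 192, 154, 146 and 162 in zone II, then 173, 192, 163 and 186 in zone III. Its zones overlapped, and its difference between zones II and I was -0.34 ± 0.13 (SE, adjusted p = 0.0645). That difference passed with the array letter as a block (adjusted p = 0.0443), under ribosomal centring (-0.63, adjusted p = 0.00657), and without array C of zone I or array A of zone II (adjusted p = 0.0162 and 0.0329).

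**Figure D3:**
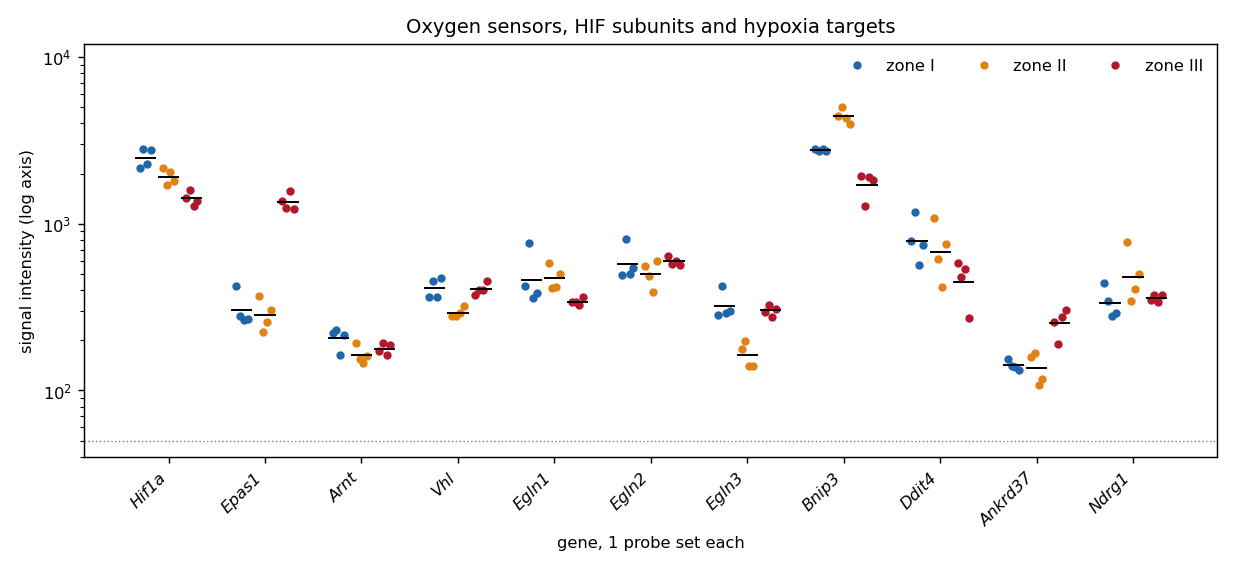
Signal intensity on a log axis for the 11 sensors, factors and hypoxia targets in zones I, II and III, 1 point per array with a bar at the geometric mean of 4 arrays; the dotted line is the filter of 50. Epas1 and Ankrd37 are highest in zone III, Egln3 and Vhl are lowest in zone II, Hif1a steps down from zone to zone on this scale, and Bnip3 alone is clearly highest in zone II.

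Among the genes of oxygen-dependent breakdown, Vhl and Egln3 dipped in zone II. Vhl read 364, 452, 362 and 472 in zone I, 279, 279.5, 290.4 and 319.7 in zone II, then 376, 399, 401 and 456 in zone III, and the 4 zone II arrays were below all others. Its log2 difference was -0.49 ± 0.12 (SE, adjusted p = 0.00711) for zone II minus zone I and 0.48 for zone III minus zone II, both called. Median centring lowered them to -0.30 and 0.24 (adjusted p = 0.0555 and 0.109), and the median of its probe sets gave -0.19 and 0.34 (adjusted p = 0.33 and 0.0628). Egln3, itself induced by HIF in many cells, read 282, 424, 291 and 299.8 in zone I, 177, 197, 140.3 and 141 in zone II, then 297, 326, 277 and 310.1 in zone III. Zone II was again the lowest on every array, 1.97-fold below zone I (-0.98 ± 0.16 SE, adjusted p = 4.3e-04), and zone III was 1.86-fold above zone II.

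Egln1 and Egln2 did not pass in any comparison of the 12 arrays as deposited. Egln1, the main oxygen sensor of most tissues, read 422, 771, 359 and 387 in zone I, 582, 414, 419 and 502 in zone II, then 339, 338, 325 and 366 in zone III, so every zone III array was below every zone II array, with a difference of -0.47 ± 0.21 (SE, adjusted p = 0.0833). Array B of zone I, at 771, stood apart, and without it the same difference passed (adjusted p = 0.00867). On 12 arrays it passed when fluidics runs were blocked (-0.51, adjusted p = 0.0489), with array weights, under quantile normalization and median centring, and over the median of its probe sets (adjusted p from 0.0065 to 0.0424). Egln2 read 491, 809.7, 501 and 543 in zone I, 557, 489, 387 and 596 in zone II, then 644, 573, 598 and 569 in zone III, with overlapping zones and array B of zone I again the highest; under ribosomal centring it was higher in zone III than in zone II (0.68, adjusted p = 0.0123).

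Known targets went separate ways. Bnip3, a mitochondrial protein of autophagy and cell death, read 2797, 2746, 2803 and 2729.5 in zone I, 4449, 5006, 4286 and 3986 in zone II, then 1930.2, 1271, 1903 and 1843 in zone III. The 3 zones were separate, zone II rising 1.6-fold over zone I (0.67 ± 0.14 SE, adjusted p = 0.00237) and zone III falling 2.58-fold below zone II (-1.37 ± 0.14 SE, adjusted p = 5.6e-06). Quantile normalization lowered the rise to 0.35, which was not called (adjusted p = 0.0657). Ankrd37 averaged 142 ± 9.61, 138 ± 29.4 and 257 ± 48.3 in zones I, II and III and rose in zone III against zone II by 0.90 ± 0.17 (SE, adjusted p = 9.2e-04); its dip in zone II against both outer zones was lost without array C or D of zone II (adjusted p = 0.0768 and 0.0663) and under quantile normalization and median centring (adjusted p = 0.19 and 0.193). Ddit4, an inhibitor of mTORC1 under stress, ranged over 566 to 1172, 416 to 1081 and 272 to 579, and Ndrg1 over 278 to 444, 343 to 778 and 337 to 375. Neither passed in any comparison of the 12 arrays as deposited, and both did under some alternatives. Ndrg1 was higher in zone II than in zone I when fluidics runs were blocked (0.66, adjusted p = 0.0174) and without array A of zone I or B of zone II (0.66 and 0.69, adjusted p = 0.0458 and 0.0308), and higher than the outer zones with the array letter as a block (0.47, adjusted p = 0.04). Ddit4 was lower in zone III than in zone I with the array letter as a block (-0.82, adjusted p = 0.0494), under quantile normalization (-0.85, adjusted p = 0.0464) and without array C of zone I (-0.98, adjusted p = 0.0401).

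By pairs of zones and on the deposited scale, the enzymes and transporters were mostly higher in zone II than in zone I and mostly lower in zone III than in zone II. Between zones II and I, 13 of 23 enzymes and transporters were higher and 5 were lower, where 16% of all genes tested were higher and 25.4% lower, and the median difference was 0.34 against -0.09 for all genes. The 5 lower genes were Slc2a3, Hk1, Ldhb, and Eno2 and Fbp2, which passed the filter through zone I alone. Quantile normalization gave 7 higher and 5 lower, centring on each array's median 16 and 4, and centring on ribosomal protein genes 5 and 6. Shares of all genes were counted on the deposited scale alone. Between zones III and II, 2 were higher (Slc2a3 and Hk1) and 16 were lower, with 30.8% and 22.7% of all genes, and the median was -0.66 against 0.08; the same 3 scalings gave 2 and 14, 2 and 17, and 3 and 10. Without Eno2 and Fbp2 the counts were 13 higher and 3 lower of 21 between zones II and I, and 2 and 15 between zones III and II.

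Between zones III and I, the ends of the series, 9 enzymes and transporters were lower and only Pfkfb4 was higher (log2 difference 0.44, lost without array D of zone I or B or C of zone III, adjusted p = 0.0565, 0.0603 and 0.0626), where 21.7% of all genes were lower and 21.6% higher. Eno2 and Fbp2 were among the 9, and without them 7 of 21 were lower. Aldoc, Tpi1, Pkm, Slc16a3 and Pdk1 were lower in zone III under every alternative run. Of the 11 sensors, factors and targets, 1 was higher and 3 were lower in zone II than in zone I. Those were 9.09% and 27.27%, against 16% and 25.4% of all genes. In zone III against zone II 4 were higher and 2 lower (36.36% and 18.18%, against 30.8% and 22.7%). In zone III against zone I 2 were higher and 2 lower (18.18% each, against 21.6% and 21.7%). These pairs share arrays, so their counts are not independent of each other.

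**Figure D4:**
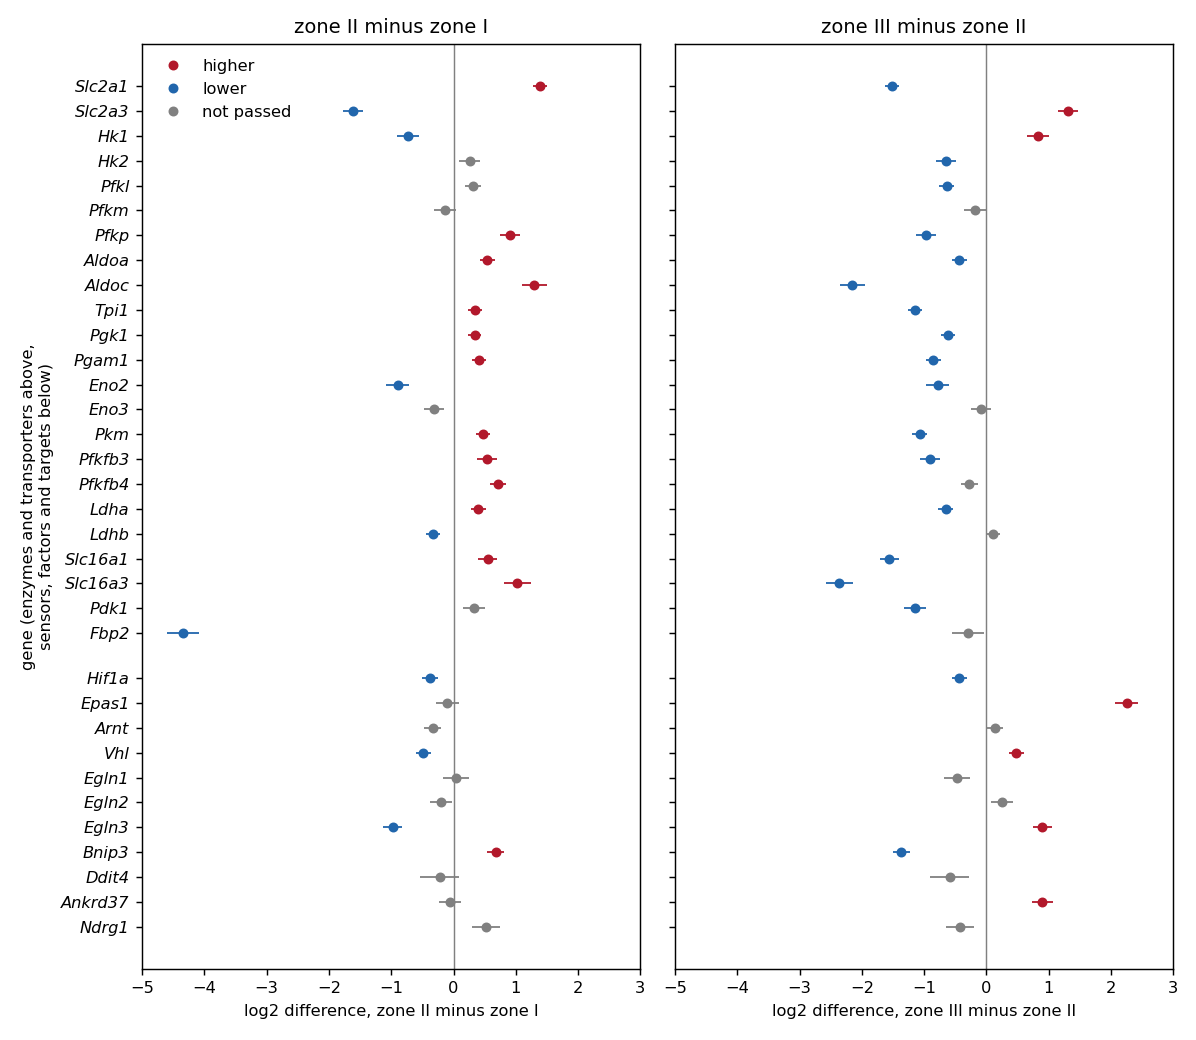
Log2 differences for zone II minus zone I (left) and zone III minus zone II (right) of the 34 genes, with bars of 1 SE from limma on 12 arrays and colours for genes called higher, called lower or not passed at an adjusted p of 0.05. The enzymes and transporters above the gap are mostly right of 0 on the left and mostly left of 0 on the right, Slc2a3 and Hk1 go the other way, and Epas1 has the largest rise in zone III.

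Each of 3 fluidics runs held all 3 zones. With the run as a block 14 of the 34 genes were higher and 7 lower in zone II than in zone I; Hif1a and Pgk1 lost their calls (adjusted p = 0.0652 and 0.0503), and Ndrg1 gained one. Within the runs all 22 genes called between zones II and I, all 24 between zones III and II and all 14 between zones III and I had the same direction in each run, a count over genes called on these same arrays. Leaving out the 3 arrays lettered A, whose erythroid sums were the highest of their zone, was an unplanned alternative. It left 16 of the 34 genes higher and 7 lower in zone II than in the outer zones. On 12 arrays 17 and 7 were called, and Hk2 lost its call (adjusted p = 0.0865). Between zones II and I, Tpi1, Pgk1, Pgam1, Ldha and Ldhb lost their calls (adjusted p = 0.0955, 0.112, 0.0795, 0.0822 and 0.123). Between zones III and II, Hif1a lost its call (adjusted p = 0.0657).

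Other hypoxia-induced genes were found on both sides. On the deposited scale, of 21 tested apart from the genes above, 10 were higher and 8 lower in zone II than in the mean of the outer zones (47.62% and 38.1%, against 20.1% and 30.9% of all genes). Those that peaked in zone II included Ak4, a mitochondrial adenylate kinase, at 511 ± 94.5, 1256 ± 62.7 and 358 ± 68.5 in zones I, II and III, Car12, a membrane carbonic anhydrase (671 ± 112, 934 ± 142 and 60.7 ± 12.2), and the collagen prolyl hydroxylase subunits P4ha1 and P4ha2 (log2 differences to the outer zones of 0.82 and 1.18). Vegfa, the main angiogenic factor, was 209 ± 18.6, 191 ± 16.8 and 449 ± 78.9, higher in zone III than in zone II by 1.22 ± 0.14 (SE, adjusted p = 1.2e-05), and Lox, the collagen cross-linking oxidase, rose by 2.84 ± 0.22 (SE, adjusted p = 6.5e-07). Car9, another membrane carbonic anhydrase, fell to 65.8 ± 1.77 in zone II, against 344 ± 123 in zone I.

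Genes of mitochondrial respiration peaked together with those of glycolysis on the deposited scale. Of 29 genes of oxidative phosphorylation 22 were higher and 0 lower in zone II than in the mean of the outer zones, with a median of 0.43 beside 0.49 for the enzymes and transporters of glycolysis. Quantile normalization gave 8 higher and 1 lower, and centring on ribosomal protein genes 1 and 3. Of 19 genes of the pyruvate dehydrogenase complex and the TCA cycle 10 were higher and 0 lower (52.63% higher, against 20.1% of all genes). That count is given on the deposited scale alone.

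Among 9 genes of glycogen metabolism 3 were higher and 1 lower in zone II than in the outer zones (33.33% and 11.11%, against 20.1% and 30.9% of all genes). Pygl, the liver glycogen phosphorylase, averaged 1318 ± 189, 2996 ± 228 and 468 ± 78.8 in zones I, II and III, with log2 differences of 1.19 for zone II minus zone I and -2.69 for zone III minus zone II. Ugp2, which makes UDP-glucose, averaged 1684 ± 46.9, 3323 ± 293 and 992 ± 55.4, and Pgm1, a phosphoglucomutase, was 1.00 above the outer zones. Of 7 genes of the pentose phosphate pathway 3 were higher and 0 lower (42.86% higher). Counts for the glycogen and pentose phosphate genes are given on the deposited scale alone.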

How the data were processed

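The authors deposited 1 linear signal intensity per probe set and array, and all arrays share a 2% trimmed mean of 150.001. The methods name GCRMA and RMA and the submitters' processing notes RMA; values scaled in this way do not look like either, so the algorithm is not settled. Here log2 signals were used as they are, a probe set had to average 50 or more in any zone, controls were left out of the fit, and limma 3.58.1 in R 4.3.3 compared the zones on 12 arrays, with Benjamini-Hochberg adjustment over 22255 probe sets within each comparison. Shares over all genes used 11808 genes with 1 probe set each, and a gene was called at an adjusted p under 0.05.

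The genes, lists and tests were chosen with earlier results of these data known. Array values are given for genes that differed by a log2 of at least 1, and for the factors, prolyl hydroxylases, Vhl and Gapdh. Probe sets of Ndrg1, Slc2a3, Aldoa, Tpi1, Pgk1 and Ldhb carry suffixes that mark possible binding of related transcripts. The study pooled a litter per sample and used 4 litters; the labels do not tie letters to litters. Alternatives were other filters, scalings, probe set rules, blocks and arrays left out. Sequences are from RefSeq, build GRCm38.p6; of the 38 genes 34 had a promoter window. Steps were tested on simulated data. Raw array intensities were not used, but the hybridization date recorded for each array set the fluidics runs.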

Additional observations from a re-analysis of the deposited data

Results flagged for a closer look

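In 9 of 102 groups of 4 arrays, 1 array stood apart from the other 3 by Dixon's test at the 95% level, which chance gives in about 1 group of 20. Array B of zone I was the high one in 4 of them. It read 771 for Egln1, where the other 3 read 359 to 422, and 809.7 for Egln2, where they read 491 to 543. It read 424 for Egln3 beside 282 to 299.8, and 319.9 for Pfkp beside 196 to 209. Array A of zone I was high for Epas1, at 424 beside 264 to 280.4, and array C of zone I was low for Eno3, at 317 beside 465 to 481. In zone III, Bnip3 was low on array B, at 1271 beside 1843 to 1930.2, Hk1 was low on array A, at 436 beside 544 to 558, and Ldhb was high on array C, at 1145 beside 1040.1 to 1058. Without array B of zone I, 13 of 34 genes were higher and 6 lower in zone II than in zone I.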

How the results depend on the processing

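The direction of called genes held under the alternatives, apart from Hif1a, and their number moved with the scaling. For zone II minus zone I, 14 of 34 genes were higher and 8 lower. The higher ones numbered 9 with no filter on low signals, 7 under quantile normalization (beside 8 lower) and 6 under ribosomal protein gene centring (beside 10 lower), and under median centring 18 were higher and 5 lower. For zone III minus zone II, 6 were higher and 18 lower, and ribosomal centring gave 9 and 11. For zone III minus zone I, 3 were higher and 11 lower, and median centring gave 3 and 17. Against the mean of the outer zones 17 were higher and 7 lower in zone II, and ribosomal centring gave 8 and 12. Ribosomal centring shifted the median of all genes to -0.38, 0.51 and 0.13 in the 3 pairs of zones, and median centring to 0.10, -0.16 and -0.07. The median of its probe sets turned Hif1a round for zone III minus zone II (0.11, adjusted p = 0.717) and for zone II minus the outer zones (-0.57, adjusted p = 0.0284), where ribosomal centring gave -0.33 (adjusted p = 0.0479); beyond the probe sets themselves the cause was not tested.

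Of 84 calls over the 4 comparisons 50 passed under every alternative. Leaving out 1 array at a time gave 11 to 15 genes higher in zone II than in zone I and 16 to 18 higher than in the outer zones. The 12 correlations of deviations between arrays of the same letter ran from -0.13 to 0.26, 8 of them over 0.1. For 7 arrays the best match in another zone had their own letter, and the number expected by chance was not computed. These values do not settle whether letters are pairs, no label ties them to litters, and the main fit used no pairs. With the letter as a replicate block 14 genes were higher and 8 lower in zone II than in zone I, and 18 and 7 against the outer zones. That block ended the call of Hif1a between zones II and I (adjusted p = 0.0594) and added those of Arnt there (adjusted p = 0.0443), of Ddit4 between zones III and I (adjusted p = 0.0494) and of Ndrg1 against the outer zones (adjusted p = 0.04). Precision is limited by 4 arrays per zone, and signals under 50, such as Fbp2 in zones II and III, carry little information on direction.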
